A study of Homo sapiens with 19 samples.

Results

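Fibronectin and the matricellular proteins are secreted into the extracellular matrix, the meshwork of proteins and sugars around cells. Cells assemble fibronectin into fibrils through integrins, and the fibrils then hold collagens and growth factors. Matricellular proteins bear little load themselves and instead change how cells grip the matrix and how signals reach them. In injured liver they are known as parts of the early scar, and transforming growth factor beta is a textbook inducer of several of them.

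The 9 genes described here were taken by name and matched by Ensembl identifier, out of the 32703 gene identifiers listed in all 19 libraries, and all 9 were found in every library. The list was drawn up with earlier results of these data known. FN1 (ENSG00000115414, GRCh38 chr2:215360440-215436073, minus strand) encodes fibronectin. TGFBI (ENSG00000120708, chr5:136028988-136063818, plus strand) encodes a secreted adhesion protein named for its induction by transforming growth factor beta. SPARC (ENSG00000113140, chr5:151661096-151686975, minus strand) encodes osteonectin, which binds collagen and calcium. POSTN (ENSG00000133110, chr13:37562583-37598844, minus strand) encodes periostin, a relative of the TGFBI product that fibroblasts secrete. THBS1 (ENSG00000137801, chr15:39581079-39599466, plus strand) encodes thrombospondin 1, which can activate latent transforming growth factor beta. TNC (ENSG00000041982, chr9:115019575-115118207, minus strand) encodes tenascin C, a large glycoprotein of wounds and developing tissue. SPP1 (ENSG00000118785, chr4:87975667-87983532, plus strand) encodes osteopontin, a phosphoprotein made by bile duct cells and activated macrophages in liver. VCAN (ENSG00000038427, chr5:83471618-83582303, plus strand) encodes versican, a large chondroitin sulphate proteoglycan, and BGN (ENSG00000182492, chrX:153494980-153509546, plus strand) encodes biglycan, a small leucine-rich proteoglycan that binds collagen.

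The genes were measured by droplet single-cell RNA sequencing in human liver organoids grown from W01, a wild-type line of human pluripotent stem cells that WiCell supplies, which is the only line used. Organoids in ultra-low attachment (ULA) plates were untreated and were sampled on day 21 (n = 3 libraries) or day 34 (n = 2). Organoids on an orbital shaker were sampled on day 25 in 7 groups of 2 libraries: untreated organoids, the growth factor TGFB1 at 10 ng/ml with its own control, PA at 500 µM with its own control, and OA at 500 µM with its own control. TGFB1 and PA were given for 5 days after 20 days of culture. The labels spell out neither PA nor OA, do not say what the controls received, and name OA in titles and sample attributes while the protocol text covers TGFB1 and PA only. All samples had 10 min of trypsin, and the day 34 and shaker organoids had another wash and 10 min more.

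A unique molecular identifier (UMI) marks 1 captured RNA molecule. A cell was kept where it had 500 or more genes with a UMI and mitochondrial genes held no more than 20% of its UMIs, which left 3089 to 12427 cells per library. Levels are in CPM, the usual scaling of a gene's UMIs by the total of its library, here with UMIs summed over the kept cells. Deposited totals ran from 7476533 to 92522222 UMIs per library, and kept cells had a median of 1310 UMIs in TGFB1 control replicate 1, 1747 in PA control replicate 1 and up to 14304.5 elsewhere. Pairs of libraries shared at most 32 cell barcodes (median 9 over 171 pairs). Replicate numbers are the labels', which do not say whether replicates came from separate cultures, so p-values measure only the spread between these libraries. All 8 hepatocyte markers, ALB among them, had UMIs in every group, and their summed level was lowest on day 34 in ULA plates, at 83.8 and 769.6 CPM. The 6 endothelial markers summed to 32.3 to 176.9 CPM per library and the 7 macrophage or leukocyte markers to 4.24 to 575.1 CPM. EGFL7 gave 30.8 to 176.5 CPM of the first list and LYZ, which epithelial cells can also make, 2.02 to 574.3 CPM of the second. Every other gene of the lists was at most 5.01 CPM, and the defining markers VWF, CDH5, PTPRC and CD14 were at most 0.383 CPM.

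Levels were also summed within 2 cell classes. EPCAM-positive cells had at least 1 UMI of EPCAM, an epithelial surface protein, and none of COL1A2 or COL3A1, fibrillar collagen genes of mesenchymal cells. COL-positive cells had the reverse. Cells with both entered neither class: they made up 1.93% and 5.24% of cells in the TGFB1 controls, 15.8% and 8.65% with TGFB1, 26.7% and 32.0% in the OA controls, and 49.6% and 59.7% on day 34 in ULA plates. Cells without a UMI of any of these genes were also outside both classes. Their share was 44.7% and 4.91% in the TGFB1 controls and 7.38% and 4.19% with TGFB1. It was 33.9% and 10.1% in the PA controls and 24.1% and 7.29% with PA. Class sums of under 50 cells were left out, which removed the EPCAM-positive sum of ULA day 34 replicate 1 (23 cells) and the COL-positive sum of OA replicate 2 (38 cells).

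The DNA before the transcription start is shown for the 4 genes that rose most with TGFB1 in EPCAM-positive cells (FN1, TGFBI, SPARC and TNC) and for POSTN, whose UMIs there stayed few. Each line holds the 250 bases that precede the RefSeq start (GRCh38.p14), 5′ to 3′ on the gene's strand. Capitals mark matches to 6 short motifs, searched on both strands, and no 2 matches overlap. The windows lie at chr2:215436069-215436318 for FN1, chr5:136028738-136028987 for TGFBI, chr5:151686916-151687165 for SPARC, chr9:115118158-115118407 for TNC and chr13:37598769-37599018 for POSTN.
FN1: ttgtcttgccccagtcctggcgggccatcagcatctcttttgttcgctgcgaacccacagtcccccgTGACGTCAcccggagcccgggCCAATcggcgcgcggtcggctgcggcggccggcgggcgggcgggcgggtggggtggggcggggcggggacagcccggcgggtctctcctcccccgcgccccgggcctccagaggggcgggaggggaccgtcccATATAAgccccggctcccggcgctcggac
TGFBI: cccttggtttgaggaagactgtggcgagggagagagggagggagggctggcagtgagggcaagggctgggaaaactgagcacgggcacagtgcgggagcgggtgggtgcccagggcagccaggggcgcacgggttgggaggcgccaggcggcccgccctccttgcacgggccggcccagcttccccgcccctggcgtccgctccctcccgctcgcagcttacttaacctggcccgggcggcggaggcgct
SPARC: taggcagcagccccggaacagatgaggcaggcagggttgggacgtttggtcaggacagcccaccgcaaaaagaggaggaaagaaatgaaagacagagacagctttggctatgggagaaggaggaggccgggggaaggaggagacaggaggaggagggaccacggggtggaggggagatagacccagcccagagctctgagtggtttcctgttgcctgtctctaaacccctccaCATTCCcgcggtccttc
TNC: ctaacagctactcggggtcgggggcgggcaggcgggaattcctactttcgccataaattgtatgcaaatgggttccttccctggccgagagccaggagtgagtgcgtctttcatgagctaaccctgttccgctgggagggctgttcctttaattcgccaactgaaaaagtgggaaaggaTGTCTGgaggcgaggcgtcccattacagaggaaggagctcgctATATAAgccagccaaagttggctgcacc
POSTN: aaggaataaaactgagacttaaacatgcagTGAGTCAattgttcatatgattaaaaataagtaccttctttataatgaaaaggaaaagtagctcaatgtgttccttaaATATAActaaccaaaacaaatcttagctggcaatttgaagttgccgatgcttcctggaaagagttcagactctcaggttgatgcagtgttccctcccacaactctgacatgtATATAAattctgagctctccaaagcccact
No motif occurred in all 4 of the genes that rose together. The FN1 window held the cAMP response element TGACGTCA 183 bases before the start, a match found in 1.65% of 35116 RefSeq windows of the same 250 bases before a start. It also held CCAAT, which 32% of windows hold, and ATATAA 29 bases before the start, which 7.63% hold. TNC had ATATAA 28 bases before its start and the reverse complement of the SMAD box CAGACA, a motif of 13.6% of windows, 71 bases before it. SPARC had the reverse complement of the TEAD site GGAATG (11.9% of windows) 17 bases before its start, and TGFBI had none of the 6. POSTN had an AP-1 site, TGANTCA (6.57% of windows), 220 bases before its start, and ATATAA at 142 and 30 bases. Base composition differed widely, with a GC content of 76.4% in FN1, 72.8% in TGFBI, 54.8% in TNC and 36.4% in POSTN, against a median of 58% over all windows. These are letter matches only, and binding of any factor was not measured.

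Over all kept cells, FN1 ran from 358 to 5106 CPM. Its level was 4862 and 5106 CPM with TGFB1, 3862 and 1499 in untreated shaker organoids, 1383 and 1996 in OA controls and 1124 and 1185 in PA controls. It was 1678 and 565 CPM on day 34 in ULA plates, 635 and 1006 with PA, 686 and 808 in TGFB1 controls, 486, 620.5 and 446 on day 21 and 483 and 358 with OA. In FN1 the TGFB1 libraries stood above all others and the OA libraries overlapped day 21. Between those ends, untreated overlapped the OA controls, and PA controls, PA and TGFB1 controls all lay within the range of day 34. The 3 sets of shaker controls differed in other members too: TGFBI was 41.1 and 41.2 CPM in TGFB1 controls, 51.9 and 69.5 in PA controls and 284 and 312 in OA controls. COL-positive cells made up 3.92% to 4.57%, 7.15% to 10.0% and 35.3% to 37.5% of cells in those 3 sets. The headers of the untreated, OA control and OA libraries name Cell Ranger 6.0.2 and those of all other libraries 3.0.2. Between these sets, group and software version cannot be told apart. Each treatment is compared with its own controls, whose headers name the same version. In sums over all cells, fewer cells of a type and less RNA per cell cannot be told apart. The same holds within a class sum, since the classes were not divided into cell types.

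**Figure D1:**
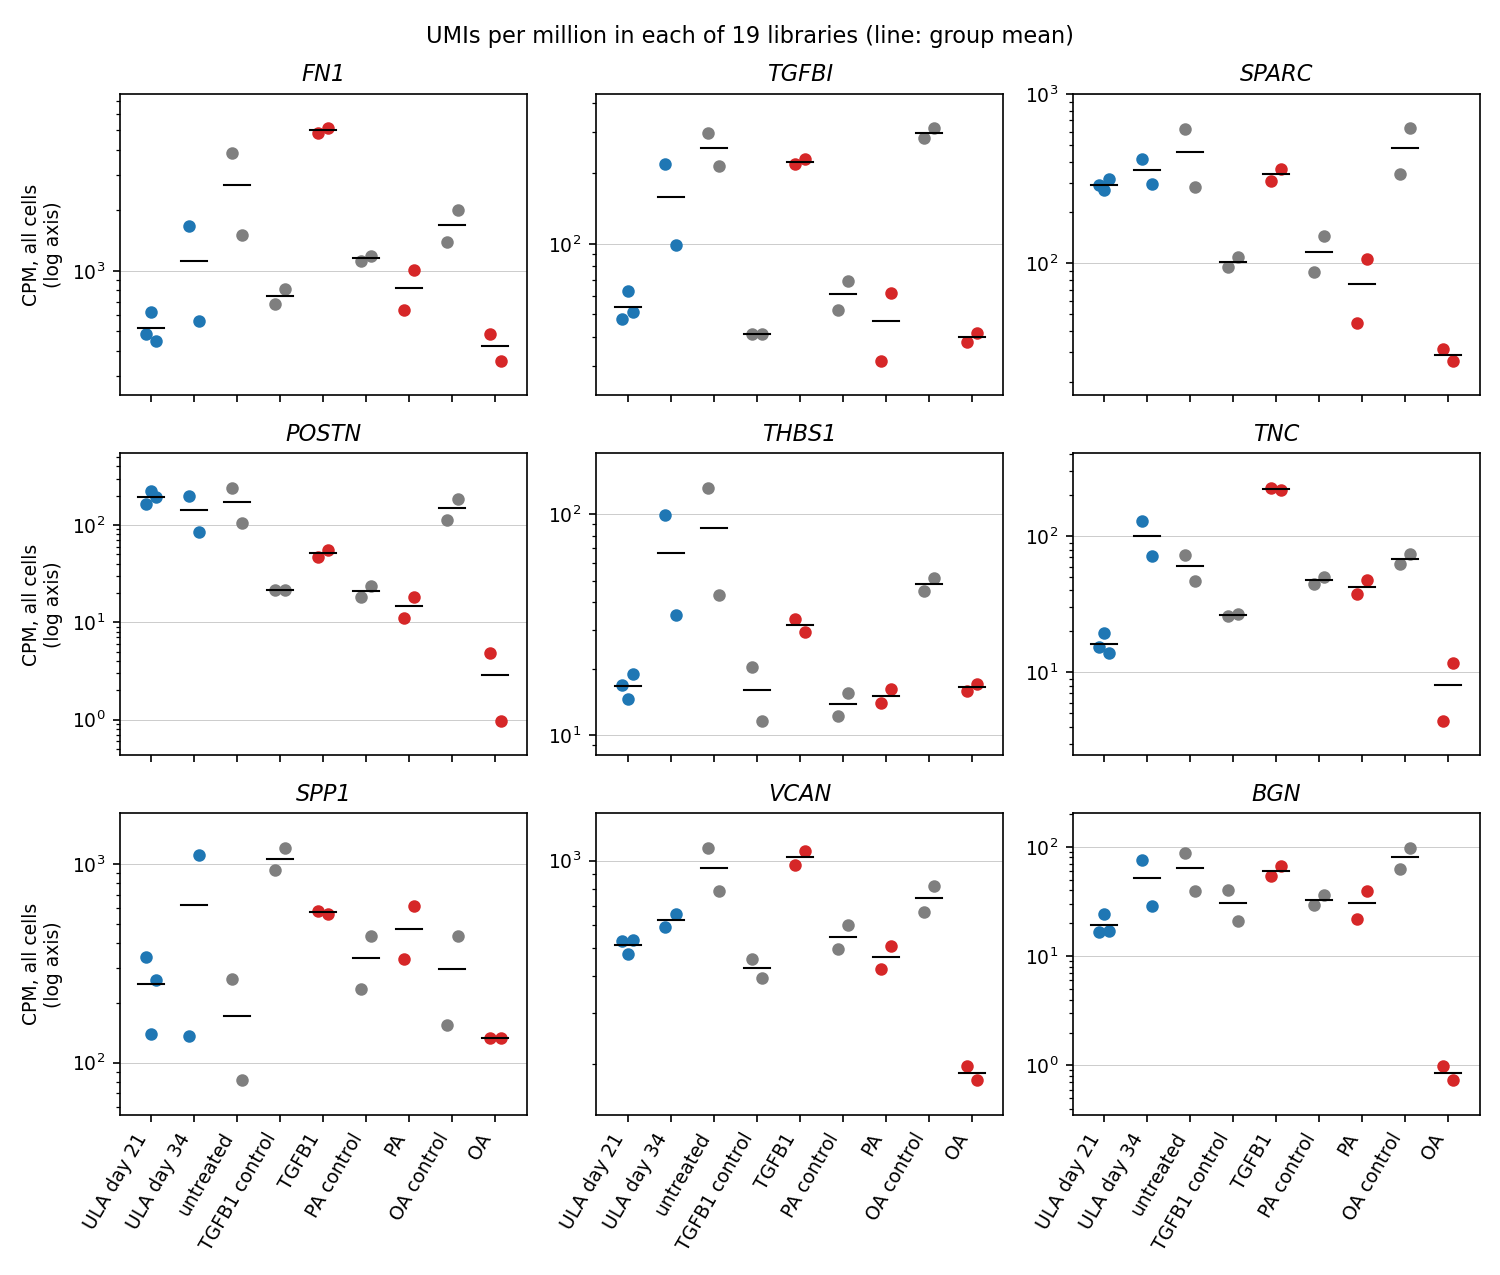
Level of each of the 9 genes in every library (CPM over all kept cells, log axis), 1 panel per gene and 1 column of points per group, each point 1 library and each line a group mean. FN1, TNC and VCAN stand higher with TGFB1 than in its controls, and all 9 genes stand lower with OA than in its controls.

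TGFB1 was compared with its control to ask which of these matrix genes answer a fibrogenic signal. Over all cells 7 of the 9 genes rose and none fell, where 10.9% of 19366 tested genes rose (edgeR's quasi-likelihood test, Benjamini-Hochberg adjusted p under 0.05). The median log2 change of the 9 was 1.47, against -0.05 over all genes. FN1 stood at 686 and 808 CPM in controls and at 4862 and 5106 CPM with TGFB1, a log2 change of 2.93 (SE 0.391, adjusted p = 0.000184). TNC stood at 26.0 and 26.8 CPM and at 225 and 217 CPM, a log2 change of 3.26 (SE 0.352, adjusted p = 3.6e-05). TGFBI stood at 41.1 and 41.2 CPM and at 219 and 229.5 CPM, a log2 change of 2.64 (SE 0.279, adjusted p = 3.1e-05). In these 3 genes every treated library was at least 5 times its highest control, and the replicates of each group lay close together.

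SPARC and VCAN followed with smaller rises. SPARC was 95.3 and 109 CPM in controls and 309 and 363 CPM with TGFB1 (log2 change 1.91, SE 0.423, adjusted p = 0.00642), and lost its call without TGFB1 control replicate 1 (1.72, adjusted p = 0.0641). VCAN was 460.5 and 395 CPM in controls and 969 and 1082 CPM with TGFB1 (1.47, SE 0.213, adjusted p = 0.000352). THBS1 rose from 20.4 and 11.7 to 33.5 and 29.4 CPM (1.20, SE 0.354, adjusted p = 0.0278) and BGN from 40.0 and 21.0 to 53.5 and 66.8 CPM (1.21, SE 0.357, adjusted p = 0.0276). Both of those calls ended when libraries were scaled by their totals alone (THBS1 0.98, adjusted p = 0.0799; BGN 0.99, adjusted p = 0.0803) and without any 1 of 3 of the 4 libraries (TGFB1 control replicate 2 or either TGFB1 library), where adjusted p lay between 0.0704 and 0.148 for THBS1 and between 0.0727 and 0.136 for BGN.

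POSTN and SPP1 did not pass the test. POSTN was 21.5 and 21.4 CPM in controls and 46.7 and 55.9 CPM with TGFB1, with no overlap (log2 change 1.45, SE 0.515, adjusted p = 0.0594). It passed with DESeq2 (1.45, adjusted p = 0.0194) and when only the 2 groups were fitted (1.46, adjusted p = 0.00504). SPP1 was 933 and 1204 CPM in controls and 582 and 563 CPM with TGFB1, the one member that was lower in both treated libraries (-0.72, SE 0.499, adjusted p = 0.324). All 9 genes kept their 2 groups apart in CPM, 8 higher and 1 lower, while 24.7% of 14053 genes of at least 1 CPM were higher without overlap and 44.7% lower. With DESeq2 8 members rose. Scaling by library totals moved the median of all genes by -0.191 on the log2 scale and the split of all calls from 2104 higher and 2191 lower to 1415 higher and 3065 lower.

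Other cell-type markers moved with TGFB1 as well. The summed level of 8 mesenchymal markers was 602.8 to 621.4 CPM in controls and 1487 to 1847 CPM with TGFB1, that of 6 smooth muscle markers 60.1 to 169.4 and 656.9 to 893.6 CPM, and that of 4 cell cycle genes 177.1 to 273.4 and 19.8 to 20.5 CPM. The 8 hepatocyte markers summed to 2588 to 3914 and 4514 to 5359 CPM, the 7 epithelial markers to 3979 to 6671 and 7320 to 9328 CPM, the 5 neural or glial markers to 26.1 to 37.2 and 74.7 to 96.7 CPM and the 7 leukocyte markers to 189.8 to 220.5 and 28.0 to 37.9 CPM. LYZ, which epithelial cells can also make, gave most of the leukocyte sum in controls. None of these markers was at 0 in a whole group except 1 leukocyte gene, and the 6 endothelial markers overlapped. COL-positive cells were 4.57% and 3.92% of control cells and 8.55% and 9.56% of treated cells. The part of these shifts in the members' changes over all cells was not tested. PMEPA1, a textbook target of the pathway, rose with it, at 148.8 ± 19.7 CPM (SD, n = 2) in controls and 612.5 ± 45.5 CPM with TGFB1.

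In EPCAM-positive cells alone, 5 of the 9 genes rose and none fell, where 12.3% of 17527 genes rose. FN1 was 317 and 287 CPM in the control epithelial sums and 3953 and 4009 CPM with TGFB1, a ratio of means of 13.2 (log2 change 3.92, SE 0.377, adjusted p = 7.7e-06). TNC was 13.5 and 14.1 CPM and 231 and 225 CPM, a ratio of 16.5 (4.23, SE 0.399, adjusted p = 7e-06). TGFBI was 13.3 and 9.58 CPM and 155 and 162 CPM, a ratio of 13.8 (4.02, SE 0.355, adjusted p = 4.9e-06). SPARC was 8.01 and 6.35 CPM and 95.8 and 97.8 CPM, a ratio of 13.5 (3.97, SE 0.375, adjusted p = 7.1e-06). VCAN, already high in these cells, was 461 and 371 CPM and 954 and 1131 CPM, a ratio of 2.51 (1.53, SE 0.260, adjusted p = 0.000759). In the first 4 genes the 2 libraries of each group lay close together, and leaving out any 1 of the 4 libraries kept the log2 changes of FN1 between 3.89 and 3.97 and those of TNC between 4.11 and 4.40. The part of a changed mix of cell types among EPCAM-positive cells in these rises was not tested.

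The other 4 genes did not pass in EPCAM-positive cells. THBS1 was 14.9 and 7.29 CPM in controls and 28.2 and 21.8 CPM with TGFB1 (log2 change 1.44, SE 0.511, adjusted p = 0.0530, and 0.0216 with DESeq2). SPP1 was 961 and 1269 CPM and 638 and 644 CPM (-0.62, SE 0.605, adjusted p = 0.484). BGN was 1.89 and 0.764 CPM and 2.81 and 1.81 CPM (1.23, SE 0.480, adjusted p = 0.0765), and passed with 2 UMIs as the class minimum (1.70, adjusted p = 0.0256), with cells of both kinds counted (1.62, 0.0263), with the stricter cell filter (1.77, 0.0109) and by majority (2.04, 0.0171). POSTN rested on 9 and 9 UMIs in controls and 33 and 16 UMIs with TGFB1, at most 1.04 CPM in any of the 4 sums (1.11, SE 0.602, adjusted p = 0.196). It passed by majority (2.53, adjusted p = 0.0268) and without TGFB1 control replicate 1 (2.09, 0.0299), and was at -0.0155 without TGFB1 control replicate 2. In the same epithelial sums FN1, TNC, TGFBI and SPARC were at least 13.2 times their control level. Library totals as the only scaling moved the median of all genes by -0.192 and the split of calls in this class from 2150 higher and 2224 lower to 1427 and 2997.

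**Figure D2:**
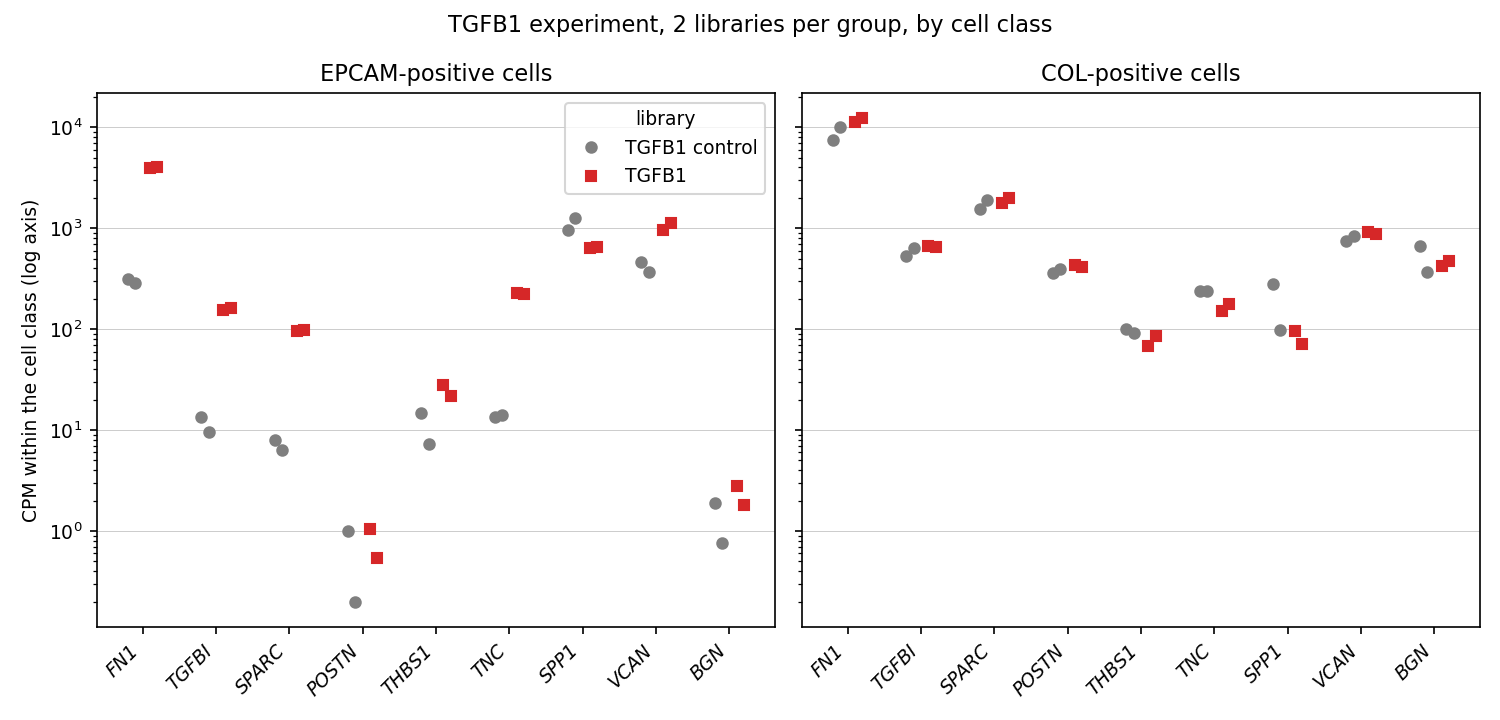
Level of each gene (CPM, log axis) in EPCAM-positive and COL-positive cells of the TGFB1 control and TGFB1 libraries, each point 1 library. In EPCAM-positive cells FN1 moves from 317 and 287 CPM to 3953 and 4009 CPM, while in COL-positive cells the ratios of group means run from 0.441 for SPP1 to 1.35 for FN1.

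In COL-positive cells none of the 9 genes passed the test (edgeR's quasi-likelihood test), none had an unadjusted p under 0.05, the lowest being 0.0915, and none passed with DESeq2. Of all 14189 genes 0.0211% passed, and 1896 had an unadjusted p under 0.05. FN1 was 7455 and 10176 CPM in controls and 11296 and 12442 CPM with TGFB1 (log2 change 0.67, SE 0.374, adjusted p = 0.437). TNC was 239 and 238 CPM and 151 and 177 CPM (-0.27, SE 0.300), lower in both treated sums, but its sign turned when cells with both were counted in each class (0.59). SPARC was 1567 and 1919.6 CPM and 1795 and 1992 CPM (0.37, SE 0.334), with overlap. In CPM 7 of the 9 genes did not overlap here, FN1, TGFBI, POSTN and VCAN higher at ratios of means of 1.12 to 1.35 and THBS1, TNC and SPP1 lower at 0.808, 0.687 and 0.441, where 49.8% of 13949 genes did not overlap. Each sum came from 333 to 660 cells. In the control organoids these cells already held FN1 at a level that was not reached by EPCAM-positive cells under TGFB1.

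The difference between the classes was tested in 1 fit with the library as a block. The TGFB1 effect was smaller in COL-positive than in EPCAM-positive cells for 6 of the 9 genes, where 3.71% of 18747 genes were called in that direction. The difference of the log2 effects was -4.47 for TNC (SE 0.293, adjusted p = 6.3e-10), -3.58 for SPARC (SE 0.253, adjusted p = 1.9e-09), -3.56 for TGFBI (SE 0.283, adjusted p = 1.3e-08) and -3.15 for FN1 (SE 0.239, adjusted p = 5.4e-09). It was -1.52 for THBS1 (SE 0.459, adjusted p = 0.0491) and -1.05 for VCAN (SE 0.235, adjusted p = 0.00611). These last 2 calls each ended without 1 library: THBS1 gave -0.87 without TGFB1 control replicate 2 (adjusted p = 0.604), -1.17 without TGFB1 replicate 1 (adjusted p = 0.336), and it also lost its call with library totals as the only scaling (-1.63, adjusted p = 0.0661) and with classes set by the majority of UMIs (-1.71, adjusted p = 0.104). VCAN gave -0.69 without TGFB1 control replicate 2 (adjusted p = 0.139) and lost its call without TGFB1 replicate 2 (adjusted p = 0.0588). The other 3 genes did not pass, at -1.04 for BGN (adjusted p = 0.0953), -0.92 for POSTN (adjusted p = 0.378) and -0.09 for SPP1. BGN passed with 2 UMIs as the class minimum (-1.46, adjusted p = 0.00812), with the stricter cell filter (-1.43, 0.00520) and without TGFB1 replicate 2 (-1.49, 0.0274). POSTN passed without TGFB1 control replicate 1 (-1.86, adjusted p = 0.0176) and by majority (-2.49, 0.0401), and without TGFB1 control replicate 2 it was at 0.80 (adjusted p = 0.587).

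**Figure D3:**
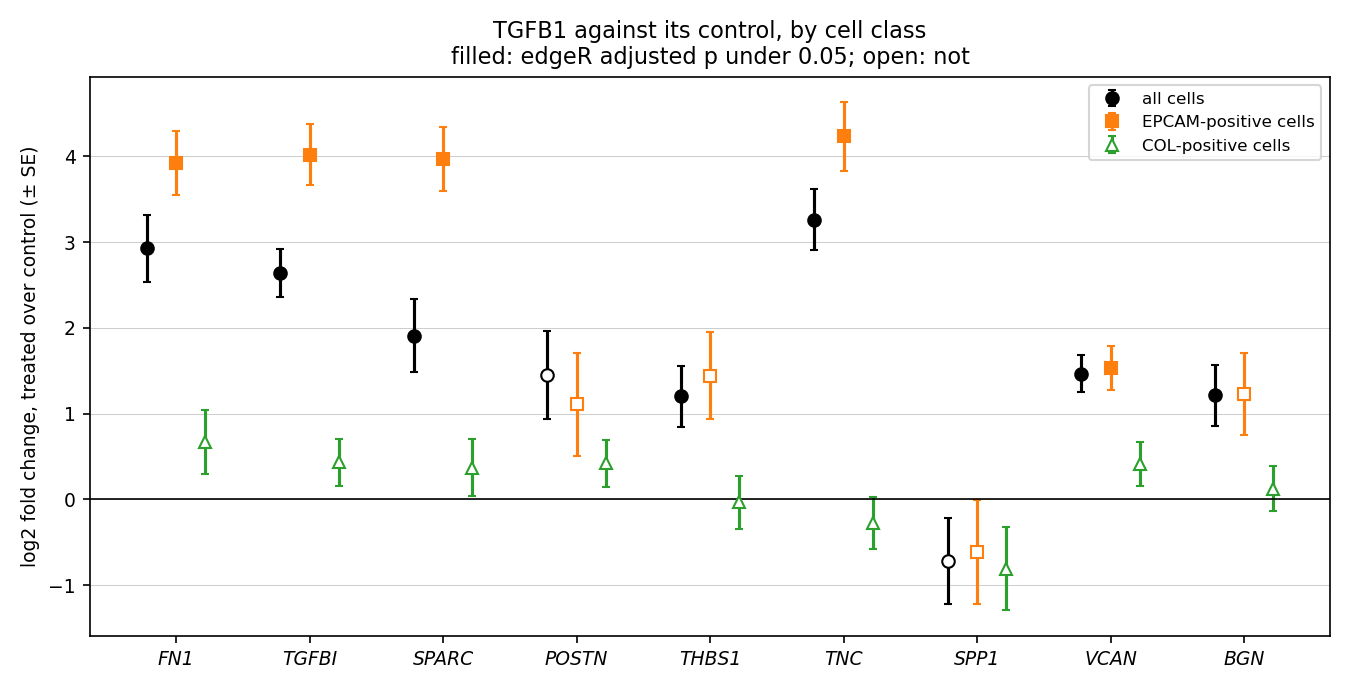
Log2 change with TGFB1 against its control for the 9 genes in all cells, EPCAM-positive cells and COL-positive cells; points are edgeR estimates (filled where adjusted p is under 0.05), bars 1 standard error on each side. FN1, TGFBI, SPARC and TNC lie between 3.92 and 4.23 in EPCAM-positive cells and between -0.27 and 0.67 in COL-positive cells.

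The share of each gene's UMIs that came from EPCAM-positive cells moved with treatment. For FN1 these cells gave 26.3% and 31.2% of all UMIs in TGFB1 controls and 58.4% and 59.6% with TGFB1. The mean share went from 37.9% to 76.1% for TNC, from 19.4% to 52.3% for TGFBI and from 4.9% to 21.4% for SPARC. It stayed at 1.7% and 1.2% for POSTN and at 2.9% and 2.9% for BGN, whose UMIs came mostly from COL-positive cells (77.1% and 71.3% for POSTN). EPCAM-positive cells were 48.8% and 85.9% of cells in controls and 68.3% and 77.6% with TGFB1, with overlap. That overlap was not seen at equal depth, with classes set after thinning every cell to the same number of UMIs, as described below. EPCAM-positive cells then made up 38.0% and 53.3% of cells in controls and 59.0% and 58.7% with TGFB1. Cells without a UMI of EPCAM, COL1A2 or COL3A1 were then 56.2% and 41.4% in controls and 26.0% and 28.4% with TGFB1. The part of these shares of cells in the shift of FN1 UMIs was not tested.

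**Figure D4:**
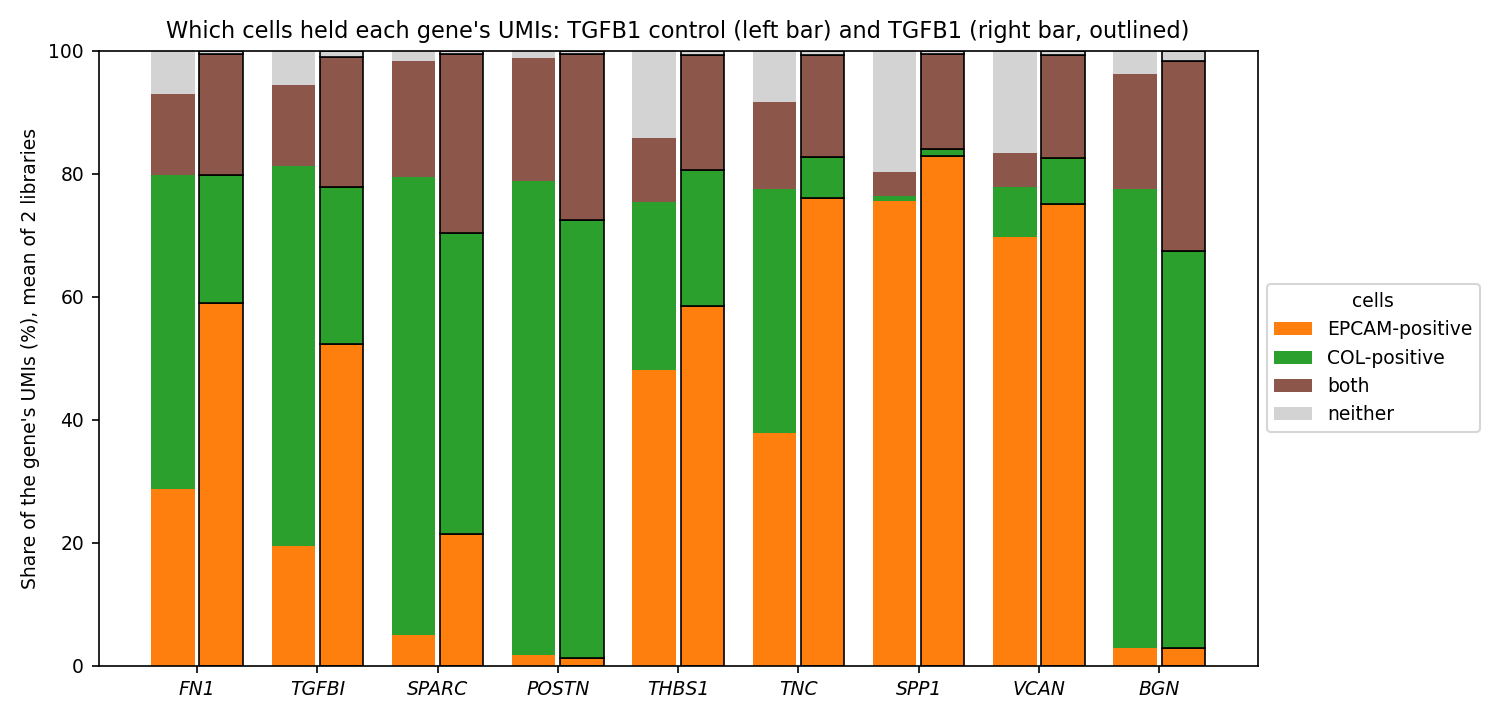
Percent of each gene's UMIs found in EPCAM-positive cells, COL-positive cells, cells with both and cells with neither, as means of 2 libraries for TGFB1 controls and TGFB1. The EPCAM-positive part of FN1, TGFBI, SPARC and TNC is larger with TGFB1, and POSTN and BGN stay mostly in COL-positive cells.

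Depth differed between these libraries, with a median of 1553 and 5746.5 UMIs per EPCAM-positive cell in controls and 7340 and 5173.5 with TGFB1. Without regard to depth, a UMI of FN1 was found in 33.0% and 56.7% of EPCAM-positive control cells and in 98.1% and 98.5% of treated ones, and a UMI of TNC in 1.92% and 4.76% and in 55.7% and 47.5%. Each cell was then thinned to 1000 UMIs, which left out 3117 shallower cells of TGFB1 controls and 228 of TGFB1. For these shares the class was that of the cell before thinning, so entry into a class was not at equal depth. After thinning, FN1 was found in 22.4% and 19.2% of EPCAM-positive control cells and in 87.6% and 88.6% of treated ones. POSTN, a gene with most of its UMIs in COL-positive cells here, was found in 0.0808% and 0.0138% and in 0.0245% and 0.0563% of these EPCAM-positive cells, the bottom of what the thinned cells can show. TNC was found after thinning in 1.27% and 1.15% and in 16.9% and 17.3%, TGFBI (2.20% and 5.04%, then 52.3% and 46.1% unthinned) in 1.16% and 0.871% and in 13.7% and 13.8%, and SPARC (1.43% and 3.37%, then 38.9% and 32.3% unthinned) in 1.02% and 0.525% and in 8.51% and 9.06%. SPP1 was found in 44.3% and 49.98% and in 28.8% and 30.5%, with unthinned shares of 54.1% and 74.1% and of 55.6% and 53.7%. In COL-positive cells FN1 (77.0% and 81.7%, then 80.1% and 90.3% unthinned) was found in 74.0% and 75.2% of control cells and in 73.1% and 84.7% of treated ones, with overlap.

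RNA from COL-positive cells inside EPCAM-positive sums was sized from genes of COL-positive cells. If every POSTN UMI in the EPCAM-positive sums had come with FN1 at the ratio seen in COL-positive cells, FN1 would be 20.6 and 5.06 CPM in TGFB1 controls and 27.3 and 16.1 CPM with TGFB1. By the BGN ratio it would be 21.2 and 21.3 CPM, and 75.5 and 47.6 CPM. The measured levels with TGFB1 were 3953 and 4009 CPM, and the POSTN and BGN ratios gave estimates that differ from each other. FN1 in EPCAM-positive cells stood at 4.25% and 2.82% of its COL-positive level in controls and at 35.0% and 32.2% with TGFB1, TGFBI went from 2.51% and 1.51% to 23.3% and 24.9%, SPARC from 0.511% and 0.331% to 5.34% and 4.91%, and TNC from 5.62% and 5.95% to 153% and 127%. The same percentage for other mesenchymal genes was not alike. COL1A1, a fibrillar collagen gene, went from 0.910% and 0.443% to 8.82% and 9.35% and PDGFRA, a growth factor receptor gene of mesenchymal cells, from 1.01% and 0.729% to 2.43% and 1.71%. LUM, TWIST1, DCN and PDGFRB lay between 0.107% and 1.34% in controls and between 0% and 1.81% with TGFB1. The percentages of FN1, TGFBI and TNC with TGFB1 were above those of all 6 of these genes, while that of SPARC was below that of COL1A1. The part of carried-over RNA in these changes was not tested.

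OA was compared with its own control in the same way. All cells together showed 8 of the 9 genes lower and none higher, where 21.6% of 19366 genes fell, and the median log2 change of the 9 was -2.56 against -0.08 over all genes. BGN was 63.2 and 97.0 CPM in controls and 0.983 and 0.730 CPM with OA (53 and 38 UMIs), a log2 change of -6.18 (SE 0.455, adjusted p = 1.3e-06). POSTN was 111 and 185 CPM and 4.78 and 0.979 CPM, a change of -5.32 (SE 0.608, adjusted p = 2.5e-05). SPARC was 336 and 629 CPM and 31.1 and 26.6 CPM, a change of -3.70 (SE 0.456, adjusted p = 4.3e-05). In these 3 genes the OA libraries lay at least 10 times below the lower control.

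TNC, TGFBI, VCAN and FN1 were lower by less. TNC was 62.2 and 74.4 CPM in OA controls and 4.43 and 11.7 CPM with OA (log2 change -2.74, SE 0.346, adjusted p = 5.1e-05). TGFBI was 284 and 312 CPM and 38.0 and 41.5 CPM (-2.56, SE 0.277, adjusted p = 1.7e-05). VCAN was 667 and 820.2 CPM and 197 and 175 CPM (-1.65, SE 0.214, adjusted p = 6.1e-05), and FN1 was 1383 and 1996 CPM and 483 and 358 CPM (-1.65, SE 0.373, adjusted p = 0.00322). THBS1 was 44.8 and 51.5 CPM and 15.8 and 17.1 CPM (-1.20, SE 0.350, adjusted p = 0.0139). Its call ended without OA control replicate 2 or either OA library (adjusted p between 0.0571 and 0.0830). SPP1 was 155 and 436 CPM and 134 and 133 CPM and did not pass (-0.77, SE 0.499, adjusted p = 0.234). No gene overlapped between the groups, where 53.6% of 13824 genes were lower without overlap. Scaling by library totals moved the median of all genes by -0.341 and the split of calls from 4197 higher and 4181 lower to 2628 and 5952.

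The fall went with a different make-up of the cells. COL-positive cells were 35.3% and 37.5% of cells in OA controls and 1.94% and 1.18% with OA, while EPCAM-positive cells were 32.4% and 23.1% and then 88.4% and 88.4%. The summed level of the 8 mesenchymal markers was 2432 to 4014 CPM in controls and 100.02 to 127.8 CPM with OA, that of the 6 smooth muscle markers 401.8 to 725.5 and 28.9 to 40.8 CPM, and that of the 8 hepatocyte markers 8590.03 to 11421 and 15248 to 17411 CPM. The 7 epithelial markers also lay apart, at 6214 to 6544 and 8539 to 9027 CPM, as did the 4 cell cycle genes (213.1 to 253.8 and 83.2 to 92.4 CPM) and the 5 neural or glial markers (188.2 to 262.4 and 81.1 to 95.8 CPM). PLIN2, a lipid droplet protein gene, was 171.9 ± 3.01 CPM (SD, n = 2) in controls and 883.5 ± 48.1 CPM with OA, and PDK4, a gene switched on by fatty acids, was 3.59 ± 0.528 and 19.6 ± 3.26 CPM. The part of the make-up in the members' lower levels over all cells was not tested there.

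Within EPCAM-positive cells alone, 8 of the 9 genes were again lower and none higher, where 16.8% of 17527 genes were lower and 19.1% higher. TNC was 21.6 and 33.7 CPM in controls and 1.34 and 4.40 CPM with OA (log2 change -3.02, SE 0.388, adjusted p = 7.9e-05). VCAN was 704 and 948 CPM and 198 and 173 CPM (-1.90, SE 0.263, adjusted p = 0.000135), and TGFBI was 145 and 90.6 CPM and 33.5 and 23.8 CPM (-1.83, SE 0.319, adjusted p = 0.000678). FN1 was 752 and 1049.6 CPM and 320.4 and 301 CPM (-1.29, SE 0.341, adjusted p = 0.00992). These 4 genes were lower in both OA sums than in either control sum, as were 49.4% of 13283 genes of at least 1 CPM. The part of a changed mix of cell types among EPCAM-positive cells in the lower levels was not tested.

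SPARC was 29.3 and 35.5 CPM in control EPCAM-positive cells and 13.0 and 7.77 CPM with OA (log2 change -1.39, SE 0.336, adjusted p = 0.00569). SPP1 was 176 and 649 CPM and 79.1 and 128 CPM (-1.71, SE 0.621, adjusted p = 0.0443), and that call ended with DESeq2 (adjusted p = 0.0553) and without OA control replicate 2 (-0.62, adjusted p = 0.535) or either OA library. BGN was 4.01 and 6.81 CPM and 0.520 and 0.494 CPM (-3.14, SE 0.468, adjusted p = 0.000231). POSTN had 34 and 21 UMIs in controls and 1 and 0 UMIs with OA, and 0 UMIs allows up to 0.0615 CPM (3 UMIs of the class total, counting error only). THBS1 was 16.7 and 30.0 CPM and 14.2 and 15.2 CPM (-0.40, SE 0.555), without passing. The FN1 call ended without OA control replicate 2 or either OA library (adjusted p between 0.0600 and 0.0730), that of SPARC without OA replicate 2 (adjusted p = 0.0713), and without OA replicate 2 only 5 of the 9 genes passed. Library totals as the only scaling moved the median of all genes by -0.233 and the split of calls from 3347 higher and 2953 lower to 2269 and 4087.

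The 8 lower genes in these sums include BGN and POSTN, genes mostly of COL-positive cells, which were far fewer with OA. At the BGN ratio of COL-positive cells, such RNA would give 18.8 and 39.3 CPM of SPARC in the control epithelial sums and 4.95 CPM in OA replicate 1, so that it would match or exceed the measured SPARC in OA control replicate 2. At the POSTN ratio it would give 3.80 and 4.45 CPM in controls and 0.0323 CPM. The BGN ratio would give 45.5 and 87.5 CPM of FN1, 9.83 and 17.0 CPM of TGFBI, 11.1 and 19.3 CPM of VCAN and 3.09 and 3.86 CPM of TNC in controls, all below the measured control levels. With OA replicate 1 it would give 1.61 CPM of TNC, above the 1.34 CPM measured. The part of such RNA in the lower levels of SPARC, BGN and POSTN was not tested.

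The few COL-positive cells that remained with OA (60 cells in replicate 1) still held these genes. FN1 was 4068 CPM there, against 3093 and 3583 CPM in the control sums, and THBS1 was 142 CPM against 137 and 86.6 CPM. TGFBI (212 CPM against 669 and 695 CPM), SPARC (512 against 1278 and 1609.9 CPM) and BGN (53.8 against 273 and 279 CPM) were lower. So were VCAN (263 against 754 and 790 CPM) and POSTN (317 against 498 and 575 CPM). TNC lay between its controls (167 against 210 and 158 CPM), while SPP1 was 725 CPM against 34.8 and 26.7 CPM. The EPCAM-positive level of SPP1 was 10.9% of its COL-positive level in OA replicate 1, against 506% and 2430% in OA controls. Whether this class held other kinds of cells with OA was not tested. With 1 such sum the OA side has no replicate of its own. In that fit 1 member was called higher and 3 lower, where 3.76% of 14189 genes were called.

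With PA no difference in the 9 genes passed the test. None passed in all cells (edgeR's quasi-likelihood test), the lowest unadjusted p was 0.190, none had an unadjusted p under 0.05 and none passed with DESeq2, where 0.0465% of 19366 genes passed with edgeR. FN1 was 1124 and 1185 CPM in controls and 635 and 1006 CPM with PA (log2 change -0.44), and POSTN was 18.3 and 23.3 CPM and 11.1 and 18.1 CPM (-0.45). Those 2 genes were lower without overlap, which 14% of genes of at least 1 CPM were. The other 7 overlapped: SPP1 was 236 and 437 CPM and 332 and 616 CPM (0.57), SPARC 89.3 and 145 CPM and 44.4 and 106 CPM (-0.57), and TNC 44.9 and 50.2 CPM and 37.9 and 47.6 CPM (-0.10). Single libraries moved these values: without PA replicate 2 SPARC was at -1.34, without PA replicate 1 at -0.07, and SPP1 ran from 0.0522 without PA replicate 2 to 1.01 without PA control replicate 2. No member passed in EPCAM-positive or COL-positive cells with edgeR's quasi-likelihood test or DESeq2, where 0.103% of 17527 and 0% of 14189 genes passed with edgeR, and 1 member in each class had an unadjusted p under 0.05.

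Those 2 members were SPARC and SPP1. SPARC in EPCAM-positive cells was 51.4 and 69.0 CPM in controls and 22.6 and 37.0 CPM with PA, a ratio of means of 0.494 (log2 change -0.97, SE 0.331, unadjusted p = 0.0111, adjusted p = 1 with edgeR). SPP1 in COL-positive cells was 68.0 and 107 CPM and 131 and 523 CPM, a ratio of 3.74 (1.87, SE 0.506, unadjusted p = 0.00204, adjusted p = 0.546 with edgeR). The groups did not overlap for 4 members in EPCAM-positive cells, with FN1 at a ratio of 0.699 and SPARC lower and POSTN and THBS1 higher, where 21.5% of 13914 genes did not overlap. They did not overlap for 4 members in COL-positive cells either, with THBS1 and VCAN lower and SPP1 and BGN higher, where 26.8% of 14244 genes did not. PLIN2 was 147.1 and 171.8 CPM in controls and 351.5 and 235.4 CPM with PA.

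The treatments were then set against each other over all cells, through their own controls. The TGFB1 effect exceeded the PA effect for 5 genes, FN1 by 3.36, TNC by 3.36, TGFBI by 2.96, SPARC by 2.48 and VCAN by 1.64 on the log2 scale, where 4.09% of genes were called in that direction. The SPARC call ended without TGFB1 control replicate 1, TGFB1 replicate 2, PA control replicate 2 or PA replicate 1 (adjusted p between 0.0632 and 0.0978). It exceeded the OA effect for 8 genes, all but SPP1, where 15.4% were. The OA effect was lower than the PA effect for 6 genes, BGN by -6.15, POSTN by -4.86, SPARC by -3.13, TNC by -2.65, TGFBI by -2.24 and VCAN by -1.48, where 10.3% were. Under library totals the calls of all genes in that contrast moved from 1969 higher and 2002 lower to 1242 and 2715, and the median by -0.273. FN1 (-1.21, adjusted p = 0.114) and THBS1 (-1.38, adjusted p = 0.0682) did not pass in that last contrast. THBS1 passed there with DESeq2 (adjusted p = 0.0444), library totals (0.0462), no gene filter (0.000888), the cells of most UMIs removed (0.0333) and only the groups compared in the fit (0.00281), and FN1 with no gene filter (0.0234) and only the groups compared (0.0414). COL-positive cells went from 35.3% and 37.5% to 1.94% and 1.18% of cells with OA. With PA they went from 7.15% and 10.0% to 5.25% and 6.50%. The part of cell make-up in the differences between treatments was not tested. PA and OA were used at the same concentration, but the OA protocol is not described, so equal exposure times cannot be read from the labels.

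**Figure D5:**
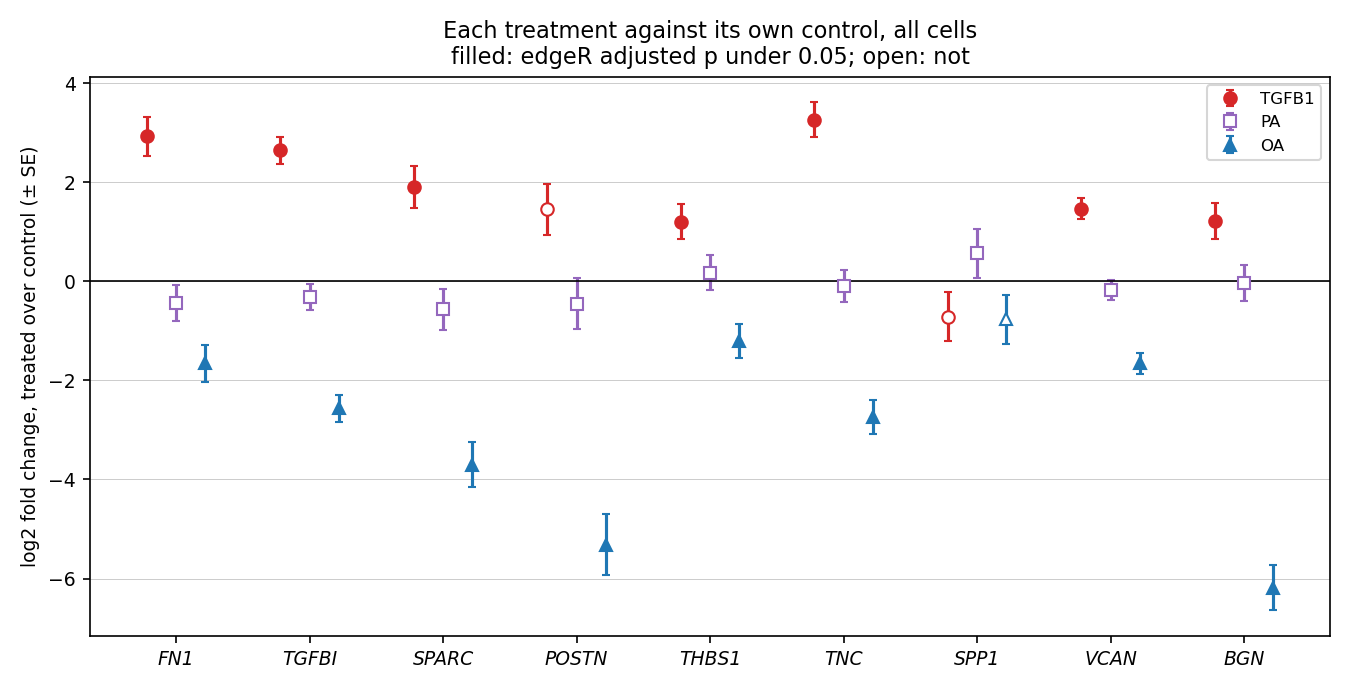
Log2 change of the 9 genes over all cells with TGFB1, PA and OA, each against its own control; points are edgeR estimates (filled where adjusted p is under 0.05), bars 1 standard error on each side. TGFB1 lies above 1 for 8 genes, PA between -0.57 and 0.57 for all 9 and OA below -1 for 8.

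Over all cells, none of the 9 genes separated OA controls from untreated shaker organoids. Every member overlapped between the 2 groups in CPM, where 45.5% of 14215 genes did not, and none passed the test (edgeR's quasi-likelihood test), where 0.573% of 19366 genes passed, none had an unadjusted p under 0.05, the lowest being 0.0699, and none passed with DESeq2. THBS1 was 131 and 43.1 CPM in untreated organoids and 44.8 and 51.5 CPM in OA controls, and SPARC was 626 and 282 CPM and 336 and 629 CPM. Nor did the contrast of these groups differ between the cell classes for any member (edgeR's quasi-likelihood test), with 2 at an unadjusted p under 0.05, where 0.16% of 18747 genes were called. Within COL-positive cells 6 members did not overlap, FN1, THBS1, SPP1 and VCAN lower in OA controls (ratios of means 0.639, 0.565, 0.471 and 0.719) and TGFBI and BGN higher (1.14 and 1.32), where 52.4% of 14026 genes did not overlap. In EPCAM-positive cells only POSTN did not overlap (0.508), where 48.8% of 13591 genes did not. Replicates of the untreated group lay far apart, with FN1 at 3862 and 1499 CPM.

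Day 34 was compared with day 21 in ULA plates to follow the genes with time in culture. Of the 9 genes 3 rose and none fell, where 8.42% of 22258 genes rose. TNC was 15.3, 19.4 and 13.8 CPM on day 21 and 130.2 and 71.9 CPM on day 34 (log2 change 2.53, SE 0.274, adjusted p = 0.00258). THBS1 was 16.9, 14.6 and 18.9 CPM and 98.7 and 34.9 CPM (1.87, SE 0.385, adjusted p = 0.0203), and TGFBI was 47.8, 62.8 and 50.9 CPM and 219 and 99.0 CPM (1.45, SE 0.318, adjusted p = 0.0251). The calls of THBS1 and TGFBI ended without any 1 of the 3 day 21 libraries (adjusted p between 0.0692 and 0.115), and the call of TNC held without each of those in turn. With a replicate block none of the 3 genes passed, as given below. Without 1 library of either day the log2 change ran from 2.04 to 2.88 for TNC, from 0.94 to 2.42 for THBS1 and from 0.77 to 1.89 for TGFBI. Without either day 34 library 5 members passed, on 1 remaining day 34 library. Scaling by library totals moved the median of all genes by 0.129 and the split of calls from 1875 higher and 1600 lower to 2599 and 1305. Markers of several cell types lay apart between the days: the 6 smooth muscle markers summed to 120.0 to 152.0 CPM on day 21 and 282.5 to 984.8 CPM on day 34, the 8 hepatocyte markers to 2044 to 2263 and 83.8 to 769.6 CPM, the 4 cell cycle genes to 639.1 to 756.6 and 285.1 to 419.2 CPM, the 7 leukocyte markers to 91.8 to 169.2 and 4.24 to 36.7 CPM and the 5 neural or glial markers to 5.29 to 6.86 and 10.3 to 57.4 CPM. The 8 mesenchymal markers overlapped, and LYZ, which epithelial cells can also make, gave most of the leukocyte sum on day 21. The part of these shifts in the members' changes was not tested. Day 34 organoids also had the longer trypsin treatment, and age and dissociation cannot be told apart.

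The other 6 genes did not pass on day 34. The 2 day 34 libraries differed more than those of day 21, with FN1 at 1678 and 565 CPM and SPP1 at 137 and 1109.8 CPM, against 342, 140.0 and 261 CPM of SPP1 on day 21. BGN was 16.7, 24.2 and 17.1 CPM and 75.7 and 28.5 CPM (log2 change 1.31, adjusted p = 0.0584, and 0.0109 with DESeq2). VCAN was at 529, 476 and 535 CPM and 589.5 and 658 CPM (0.16), and POSTN was 163, 223 and 192 CPM and 199.6 and 85.1 CPM (-0.56). DESeq2 called 4 members, BGN with the 3 above. VCAN, TGFBI, THBS1, TNC and BGN did not overlap between the days, which 34.5% of genes of at least 1 CPM also did not, upwards.

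In COL-positive cells 5 genes rose from day 21 to day 34, where 10.5% of 17413 genes did. TNC was 25.0, 27.5 and 24.6 CPM and 212 and 72.0 CPM (log2 change 2.35), THBS1 was 30.9, 22.7 and 33.2 CPM and 153 and 60.6 CPM (1.77), and TGFBI was 128, 109 and 129.9 CPM and 333 and 232 CPM (1.09). BGN was 54.4, 47.5 and 51.4 CPM and 138 and 74.5 CPM (0.94, adjusted p = 0.0350). SPP1 was 7.25, 6.30 and 7.77 CPM and 22.2 and 304 CPM (4.39), and its size rested on replicate 2, without which it was 1.55. Without 1 library TNC ran from 1.37 to 2.94, THBS1 from 0.96 to 2.305, TGFBI from 0.81 to 1.35 and BGN from 0.43 to 1.335. POSTN was lower without overlap, at 339, 334 and 406 CPM and 257 and 117 CPM (-1.06, SE 0.321, adjusted p = 0.0544). It passed with DESeq2 (adjusted p = 0.00652), with 2 UMIs as the class minimum (0.0495), by majority (0.0386) and without day 34 replicate 1 (-1.74, adjusted p = 0.000142). The count of genes called was 1 without day 21 replicate 1 or 3, 2 without day 21 replicate 2 and 5 or 6 without a day 34 library. SPP1 and BGN were at 0.95 and 1.01 when cells with both were counted in each class, and neither passed there (adjusted p = 0.424 and 0.0977). Library totals as the only scaling moved the split of all calls from 1829 higher and 1254 lower to 2431 and 843. In EPCAM-positive cells 6 members passed upwards and none downwards, where 9.27% of 17581 genes rose and 8.32% fell, but day 34 had only 1 sum there, of 747 cells. Library totals as the only scaling moved the median of all genes in that class by 0.357 and the split of calls from 1629 higher and 1463 lower to 3308 and 788. There 6 mesenchymal genes stood at different percentages of their COL-positive level: DCN at 37.1%, PDGFRA at 10.9%, COL1A1 at 7.10%, LUM at 4.90%, TWIST1 at 3.88% and PDGFRB at 0.957%. The effect of day differed between the classes for 6 members on that same single sum, where 20.5% of 19877 genes were called, 2447 larger and 1624 smaller in COL-positive cells, or 1572 and 2673 under library totals.

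The 2 cell classes were also compared directly, averaged over treatments. Over the shaker libraries 7 genes were higher in COL-positive than in EPCAM-positive cells and 1 was lower, where 15.9% of 18747 genes were higher and 34.7% lower. POSTN (log2 difference 8.65, SE 0.132), BGN (6.30, SE 0.243) and SPARC (4.98) were the most biased to COL-positive cells, followed by TGFBI (3.27), TNC (2.53), THBS1 (2.27) and FN1 (2.25, SE 0.0717). SPP1 had the opposite bias (-1.61, SE 0.182, adjusted p = 5.1e-08). VCAN did not pass (0.13, SE 0.0702, adjusted p = 0.133), and its sign turned when classes were set by the majority of UMIs (-0.15, adjusted p = 0.0877). It passed as higher in COL-positive cells with library totals (0.32, adjusted p = 0.000894) and without TGFB1 control replicate 1, untreated replicate 1, OA control replicate 1 or OA replicate 1 (0.17 to 0.23). Scaling by library totals moved the median of all genes by 0.174 and the split of calls from 2978 higher and 6512 lower to 4146 and 4943. The averages hide differences between treatments: the EPCAM-positive level of TNC was 153% and 127% of its COL-positive level with TGFB1 but 59.2% or less in every other shaker library, and that of SPP1 was 10.9% in OA replicate 1 and 92.6% in untreated replicate 2 but above 100% in the others. In untreated shaker organoids POSTN was 638 and 526 CPM in COL-positive and 3.54 and 2.51 CPM in EPCAM-positive cells, whereas VCAN was 1026 and 1123 CPM and 1347 and 712 CPM.

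In ULA organoids BGN (4.26), TGFBI (4.12) and POSTN (4.06) were the most biased to COL-positive cells, followed by TNC (3.33) and SPARC (2.46), an order unlike that of shaker organoids. It rested on 1 library, since without day 34 replicate 2 POSTN was at 5.92 and TNC at 5.30. SPP1 was again lower in COL-positive cells (-2.89), as was VCAN (-0.34, adjusted p = 0.000441), whose call ended when classes were set by the majority of UMIs (-0.03, adjusted p = 0.776). In all, 7 genes were higher and 2 lower in COL-positive cells, where 25.6% of 19877 genes were higher and 27.2% lower. Library totals as the only scaling moved that split from 5082 higher and 5408 lower to 6636 and 4435. On day 21 SPP1 was 111, 65.7 and 69.3 CPM in EPCAM-positive and 7.25, 6.30 and 7.77 CPM in COL-positive cells, the 2 ranges being far apart.

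Integrins and other receptors through which cells bind these proteins were taken as a list of 12 genes. With TGFB1 8 of the 12 rose over all cells and none fell (10.9% of all genes rose), with a median log2 change of 1.30 against -0.05 over all genes. ITGB6, whose product pairs with the integrin alpha V chain to bind fibronectin, tenascin C and latent transforming growth factor beta, was 35.4 ± 5.61 CPM (SD, n = 2) in controls and 246.7 ± 14.3 CPM with TGFB1 (3.01, SE 0.259). ITGA4, a chain of a fibronectin and osteopontin receptor, was 7.27 ± 4.11 and 34.4 ± 4.13 CPM (2.36). ITGB3 passed too, but at 0.0383 ± 0.0541 and 0.339 ± 0.0618 CPM. In EPCAM-positive cells 7 of the 10 tested receptors rose (12.3% of all genes did), ITGB6 by 3.11 and ITGA4 by 2.61. In COL-positive cells none of 11 passed, where 0.0211% of all genes did. The test of the difference between the classes called 6 of 12 receptors smaller in COL-positive cells and none larger, where 3.71% of all genes were called smaller.

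With PA none of the 12 receptors passed, where 0.0465% of all genes did. With OA 6 rose (21.7% of all genes did) and 3 fell (21.6%), at a median of 0.66 against -0.08. ITGA8, a mesenchymal fibronectin and tenascin C receptor chain, was 10.0 ± 2.05 CPM (SD, n = 2) in OA controls and 0.265 ± 0.0600 CPM with OA (-4.89). ITGA4 was 13.5 ± 4.39 and 2.15 ± 2.47 CPM (-2.28), and SDC4, a heparan sulphate proteoglycan that binds fibronectin, was 119.0 ± 12.7 and 413.3 ± 22.7 CPM (2.13). From day 21 to day 34 in ULA plates 6 of 11 rose (8.42% of all genes did), with ITGA4 at 3.19 ± 0.815 (n = 3) and 16.3 ± 3.08 CPM, ITGB6 at 15.4 ± 2.11 and 68.9 ± 6.02 CPM and CD44, a hyaluronan and osteopontin receptor, at 3.05 ± 0.543 and 8.63 ± 3.53 CPM.

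A second list held 26 other matricellular proteins, fibulins and small leucine-rich proteoglycans. With TGFB1 6 of the 25 tested rose and 2 fell (10.9% and 11.3% of all genes), at a median log2 change of 0.75. COMP, a thrombospondin of cartilage, was 2.02 ± 0.0110 CPM (SD, n = 2) in controls and 12.6 ± 1.26 CPM with TGFB1 (2.82), VTN, the hepatocyte plasma protein vitronectin, was 224.2 ± 14.5 and 35.7 ± 3.39 CPM (-2.46), and ASPN was below 1 CPM in both groups. With OA 21 of 25 fell and none rose (21.6% of all genes fell), at a median of -2.38. FBLN5, a fibulin of elastic fibres, was 20.7 ± 5.46 and 0.565 ± 0.119 CPM (-4.83), and OGN and ASPN were 15.2 ± 0.654 and 4.82 ± 0.535 CPM in controls and at or near 0 UMIs with OA. With PA none of the 25 passed (0.0465% of all genes did), and on day 34 in ULA plates 10 rose and 2 fell (8.42% and 7.19% of all genes). The largest called rises there were those of ASPN (log2 change 6.01), OGN (5.565) and THBS2, from 0.636 ± 0.0998 (n = 3) to 22.1 ± 12.5 CPM (5.00).

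Across all 19 libraries SPP1 correlated least with the other members. Pearson correlations of log2(CPM + 1) were 0.939 for SPARC with POSTN, 0.904 for VCAN with BGN and 0.866 for SPARC with VCAN. They were 0.858 for TGFBI with THBS1 and 0.856 for FN1 with TNC. Among pairs without SPP1 the lowest was 0.367, for FN1 with POSTN, while SPP1 gave -0.20 to 0.29 with the others. These describe libraries that share treatments and cell make-up and carry no test. Among 8981 genes of at least 10 CPM on average, the closest to SPARC were COL1A2 (0.969), FBN1 (0.962) and CDH11 (0.961), and the closest to POSTN were EDNRA (0.965), PCOLCE (0.963) and COL3A1 (0.961). BGN was closest to MRC2 (0.937), LOXL1 (0.932) and COL6A3 (0.925). The leading genes for FN1 were CAVIN3 (0.929), DPYSL3 (0.923) and DCBLD2 (0.897), and those for TNC were GPC4 (0.893), TGFB1I1 (0.890) and FSTL3 (0.888). TGFBI was closest to COL5A1 (0.912), PDLIM3 (0.894) and GREM1 (0.887), THBS1 to FKBP5 (0.874), TGFBI (0.858) and PDLIM3 (0.843), and VCAN to NRP2 (0.943), COL1A1 (0.937) and DCBLD2 (0.926). SPP1 had the loosest partners, ACSM3 (0.832), RABEP2 (0.809) and PSPC1 (0.799).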

How the data were processed

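Human liver organoids were profiled in 19 libraries of 10x 3′ v3 droplet single-cell RNA sequencing. The deposited values were raw UMI counts per gene and cell in matrices, per the file headers. These name Cell Ranger 6.0.2 for the untreated shaker, OA control and OA libraries, which list 36601 genes, and 3.0.2 for the others. Among the others, the TGFB1 and PA libraries and their controls list 33538 genes and the ULA libraries 58721. The submitters' processing notes list bcl2fastq, Cell Ranger 3.0.2, Scanpy and GRCh38, with no role for each. Whether cells were filtered or doublets removed before deposit is not stated by the labels or headers, and no doublet caller was run.

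Cells with at least 500 genes and at most 20% mitochondrial UMIs were kept. Counts were summed per library, over all kept cells and within each cell class. CPM used the 32703 gene identifiers shared by all libraries, and each test used the identifiers listed in every library of its own fit. Sums were tested with edgeR 4.0.16 (R 4.3.3, limma 3.58.1; TMM factors, filterByExpr, quasi-likelihood test, Benjamini-Hochberg adjustment over all tested genes, threshold 0.05). The 14 shaker libraries shared 1 fit, with each group as a term, and the 5 ULA libraries another. The class contrast and the difference of effects used the library as a block. The fit was also run on simulated data, and the outcome is not reported here. DESeq2 1.42.0, RLE factors, library totals, no gene filter, a stricter cell filter (1000 genes, 10%), removal of the cells with the most UMIs, other class rules, a replicate block and leaving out each library were the alternatives. Python 3.11.15 with numpy 2.4.6, scipy 1.17.1, pandas 2.3.3 and matplotlib 3.10.9 made the sums and plots.

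Gene positions are from GENCODE v44 (GRCh38) and promoter sequences from RefSeq (GRCh38.p14). The text names all 9 members, the called genes of each list with the 3 largest absolute log2 changes per comparison over all cells, the 3 genes most correlated with each member, and the label checks, of which 1 is not reported here. The members and lists were chosen with earlier results of these data known. The limit given for 0 UMIs covers counting error only.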

Additional observations from a re-analysis of the deposited data

Results flagged for a closer look

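For 6 of the 9 genes the effect of TGFB1 differed between the 2 cell classes of the same libraries, by a test of that difference in the fit with the library as a block. The log2 effect in COL-positive cells minus that in EPCAM-positive cells was -4.47 for TNC, -3.58 for SPARC, -3.56 for TGFBI, -3.15 for FN1, -1.52 for THBS1 and -1.05 for VCAN. Leaving out 1 library at a time kept TNC between -4.70 and -4.35 and FN1 between -3.58 and -2.75, with the calls of TNC, SPARC, TGFBI and FN1 intact. THBS1 ran from -2.01 to -0.87 and VCAN from -1.42 to -0.69, each losing its call without 2 of the 4 libraries. THBS1 also lost it with library totals as the only scaling (-1.63, adjusted p = 0.0661) and with classes set by the majority of UMIs (-1.71, adjusted p = 0.104). Median UMIs per cell were 1553 and 5746.5 in EPCAM-positive control cells, 7340 and 5173.5 in treated ones, 1320 and 5042 in COL-positive control cells and 4748 and 5757 in treated ones, and the part of depth in the fitted differences was not tested.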

How the results depend on the processing

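Of 986 alternative values of 78 called log2 changes, 924 kept direction and call and 62 lost the call. This tally leaves out the members called for OA in COL-positive cells and for day in EPCAM-positive cells. It also leaves out those called in the OA and day differences between classes. All of these rest on 1 sum for OA or for day 34. Counts of genes that passed stayed within 1.5 times in 256 alternatives and moved further in 21. Without a gene filter 9 genes passed for TGFB1 minus PA, 6 for day 34 against day 21 and 1 for OA controls against untreated. Counting cells with both in each class left 3 genes in ULA COL-positive cells, and 2 passed for the ULA difference between classes when classes were set by majority (6 otherwise). For OA controls against untreated, 1 gene passed in the difference between classes with 2 UMIs as the class minimum and with the stricter cell filter. Without 1 library the counts ran from 0 to 1 for OA controls against untreated, over all cells and between classes. They ran from 1 to 5 for ULA over all cells, from 1 to 6 in ULA COL-positive cells, from 5 to 8 for OA in EPCAM-positive cells and from 4 to 7 for the TGFB1 difference between classes.

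Same-numbered libraries did not deviate together in every comparison (correlations -0.521 for TGFB1, 0.154 for PA, 0.129 for OA, -0.628 for OA controls and -0.327 for ULA). The labels name no shared source for the numbers, so the main fits did not use them as pairs. Whether libraries were paired is not known. With a replicate block 7 genes passed for TGFB1 and 8 for OA, as without it, 7 instead of 8 for OA in EPCAM-positive cells, 0 instead of 3 for ULA over all cells (with 0 of all genes, and TNC, THBS1 and TGFBI at an adjusted p of 0.0922, 0.131 and 0.210) and 3 instead of 5 in ULA COL-positive cells. A crossed block left 7 for TGFB1, with 4155 calls over all genes against 3144 uncrossed, and 0 for OA controls against untreated, with 6 against 0.

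Signs turned for genes that did not pass, and the cause was not tested. In PA, BGN was 0.0674 with the stricter cell filter and 0.0563 without the cells of most UMIs, and without 1 library BGN ran from -0.52 to 0.33, TGFBI from -0.88 to 0.0851 and TNC from -0.27 to 0.0668. SPP1 was -0.0052 for TGFB1 minus OA without the cells of most UMIs, and without 1 library it ran from -0.75 to 0.57 there, from -1.29 to 0.0418 for OA and from -0.99 to 2.06 for ULA. SPARC for ULA was -0.0152 without the cells of most UMIs, and from -0.0919 to 0.37 without 1 library. POSTN in EPCAM-positive cells with TGFB1 ran from -0.0155 to 2.09. In COL-positive cells with TGFB1, THBS1 was 0.0023 with the stricter filter and ran from -0.24 to 0.15, TNC was 0.59 with cells of both kinds counted in each class, and BGN was -0.0431 with 2 UMIs as the class minimum, -0.24 with cells of both kinds, -0.20 with library totals, -0.11 by majority and ran from -0.11 to 0.38. In ULA COL-positive cells FN1 ran from -0.23 to 0.78, and SPARC was 0.0449 with library totals, 0.0404 with the replicate block and ran from -0.20 to 0.0359. VCAN between the classes was -0.15 by majority. For the TGFB1 difference between classes, POSTN ran from -1.86 to 0.80, and SPP1 was 0.34 with 2 UMIs, 0.24 with the stricter filter, 0.59 by majority and ran from -0.94 to 0.72. The class by majority and the crossed block were chosen after seeing the data. With 2 libraries in most groups, precision rests on spread shared across groups.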

Other observations

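The receptor and other matricellular lists were counted within the cell classes for OA and for day as well, with no class set against the other. With OA, 5 of 10 tested receptors rose and 1 fell in EPCAM-positive cells (edgeR's quasi-likelihood test, where 19.1% of all genes rose and 16.8% fell), at a median log2 change of 0.70. Of the other matricellular genes 1 of 21 rose and 9 fell there, at a median of -0.96, against a median of -0.07 over all genes. In COL-positive cells, on 1 OA sum, 5 of 11 receptors rose and 6 of 22 other matricellular genes fell, where 3.76% of all genes were called. From day 21 to day 34 in ULA plates, 6 of 11 receptors and 10 of 23 other matricellular genes rose in COL-positive cells and none fell, where 10.5% of all genes rose. In EPCAM-positive cells, on 1 day 34 sum, 5 of 9 receptors and 10 of 21 other matricellular genes rose and 4 of the latter fell, where 9.27% of all genes rose and 8.32% fell (1629 and 1463 genes, or 3308 and 788 with library totals as the only scaling).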
